A study of Mus musculus with 8 samples.

Results

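The genes of 5 cadherins (Cdh1, Cdh2, Cdh3, Cdh11 and Cdh13) and 4 catenins (Ctnna1, Ctnnb1, Ctnnd1 and Jup) were examined in mammary epithelium, 9 of the 55933 genes in the deposited table. They were taken by gene name, and each name had 1 entry. All 9 were measured in every library. Cdh13 encodes T-cadherin, which is anchored to the membrane by a lipid and lacks the catenin-binding tail of the other members, so it is a relative of the classical cadherins and not one of them in the strict sense.

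Cadherins hold neighbouring cells together by calcium-dependent contacts between identical or related cadherins on the facing membranes. Inside the cell, β-catenin or plakoglobin binds the cadherin tail, α-catenin links that complex to actin, and p120-catenin keeps the cadherin at the surface. In the mammary gland, E-cadherin joins luminal cells and P-cadherin joins myoepithelial cells, the contractile layer around the alveoli. Free β-catenin is also the transcriptional effector of Wnt signaling.

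The mammary epithelium of 4 control and 4 cKO females on the C57BL/6 background was profiled by RNA-seq at pregnancy day 14.5, each mouse giving 1 library. The cKO mice were K14-rtTA;teto-Cre;Bmpr1a fl/fl, in which the keratin 14 promoter drives the transactivator rtTA. With doxycycline in the drinking water, rtTA switches on Cre from its tetO promoter, which deletes Bmpr1a, a BMP receptor, in myoepithelial cells. The controls were littermates that the labels call WT, and the alleles they carried are not given in the sources used here. The cells came from digested glands and were not sorted, so luminal, myoepithelial and remaining stromal cells share a library, and fewer cells of a type cannot be told apart from less RNA per cell.

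Between 16123108 and 19896988 reads lay on genes in a library. Levels are in FPKM, a count of fragments that the authors divided by gene length and by a library size. The sizes that the values imply were in proportion to median-of-ratios size factors, set by the typical gene, and not to the reads on genes. Differences are cKO minus control on log2(FPKM + 1) and were tested with limma over the 15143 genes whose mean FPKM reached 0.5. Bmpr1a itself was 10.1 ± 1.28 FPKM in the control group and 11.2 ± 1.01 in the cKO group (SD, n = 4 per group), and the groups overlapped (two-sided exact permutation test, p = 0.257). This value covers the whole gene and does not isolate its floxed part. The targeted RNA thus did not check the labels, on which the directions given here rest. Of 10 milk genes, 9 were higher in cKO at an unadjusted p under 0.05 in limma, against 8.85% of all genes tested. Of these, 4, namely Csn1s2a, Csn2, Muc15 and Wap, had an adjusted p under 0.05, against 0.892% of all genes in either direction. The study displays Wap, Muc15, Csn2, Lalba, Xdh and Btn1a1 from these same libraries, so their direction is no independent check of the labels. Libraries 1 and 2 and libraries 3 and 4 of both groups deviated together, without any label that marks a batch. These sets were read from the values themselves, so fits that use them as a block are alternatives and not the main result. Differences are given within the sets where they bear on a result.

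None of the 9 genes had an adjusted p under 0.05 in limma (Benjamini-Hochberg), against 0.892% of all genes tested. At an unadjusted p under 0.05, the threshold of the study's methods, 2 of the 9 passed, Cdh3 and Cdh2, both lower in cKO. Of all genes tested, 16.4% passed that threshold, namely 7.53% lower and 8.85% higher in cKO. Limma-voom on the recovered reads likewise gave 0 of the 9 at the adjusted and 2 at the unadjusted threshold. The groups did not overlap for 2 of the 9, the same 2 genes, against 10.7% of all genes tested and, in the lower direction, 4.6%. Means were lower in cKO for 8 of the 9, with a median difference of -0.13 among the cadherins and -0.04 among the catenins, against 0.00 for all genes tested. Scaling each library to the same sum (TPM) turned the unadjusted calls over all genes from 1140 lower and 1340 higher to 1657 lower and 789 higher, and all 9 means were then lower in cKO. In TPM, Jup also passed the unadjusted threshold (limma, unadjusted p = 0.0112).

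**Figure D1:**
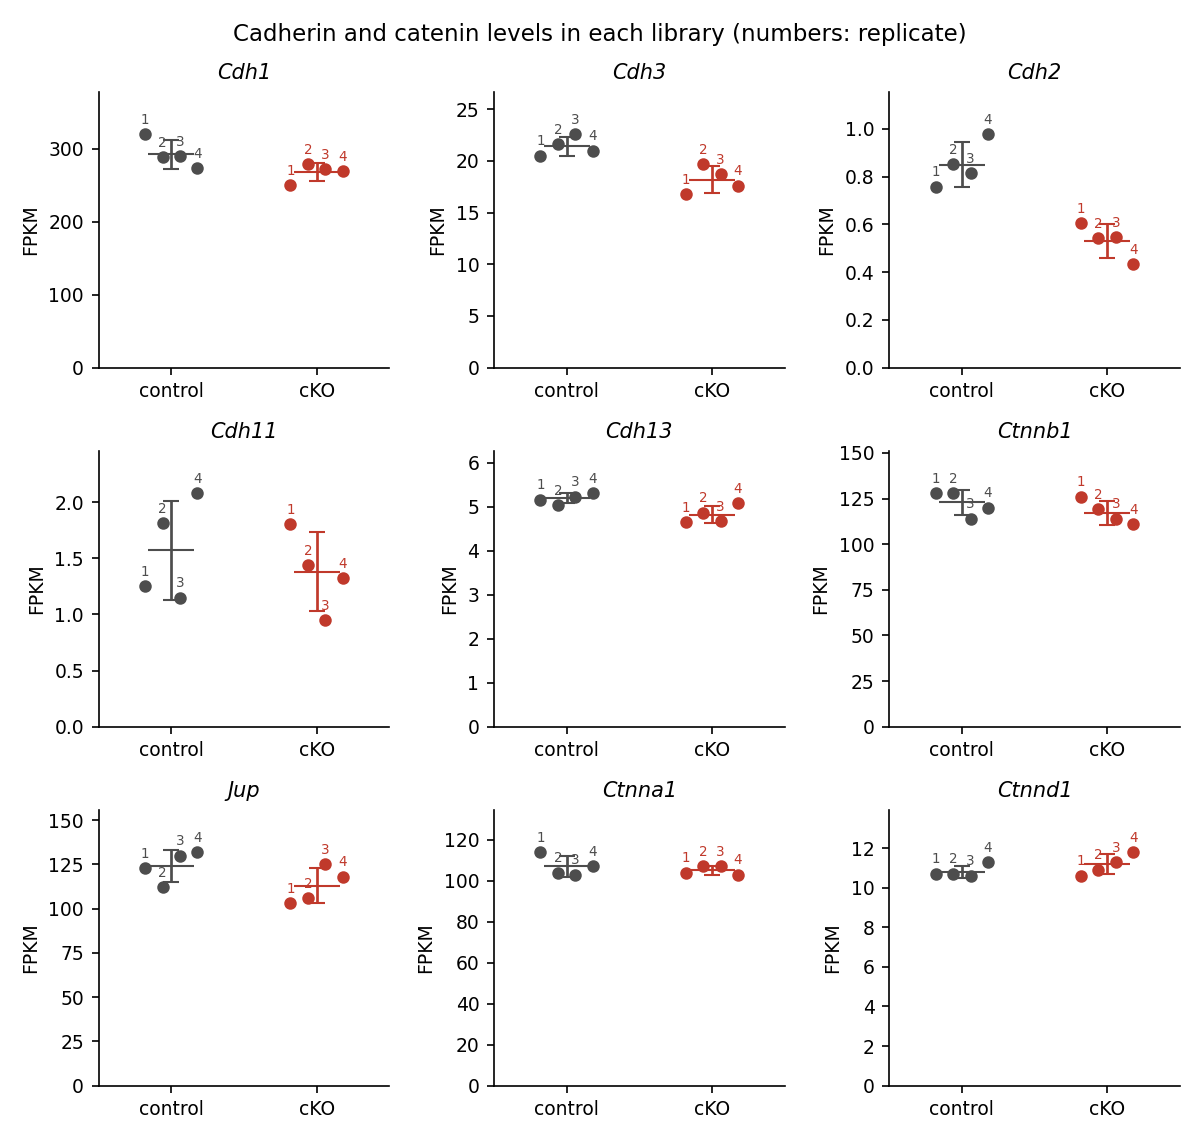
Each panel plots FPKM (y axis, from 0) of 1 gene in the 4 control (grey) and 4 cKO (red) libraries, with the replicate number beside each point and the mean and SD as bars. The groups are separate for Cdh3 and Cdh2 and overlap for the other 7 genes.

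Cdh3 encodes P-cadherin and lies on chromosome 8 of GRCm38 from 106510891 to 106557297, on the plus strand. Its FPKM was 20.5, 21.6, 22.6 and 21.0 in control libraries 1 to 4 and 16.8, 19.7, 18.7 and 17.6 in cKO libraries 1 to 4, with 1300 to 1729 reads behind each value. Every cKO library was thus below every control library, with the closest values at 19.7 and 20.5. The means were 21.4 ± 0.875 and 18.2 ± 1.31 FPKM (SD, n = 4 per group), 15.2% apart (two-sided exact permutation test, p = 0.0286, the smallest p that 4 against 4 allow). The log2 difference was -0.23 (standard error 0.07, 95% confidence interval -0.38 to -0.08, adjusted p = 0.142 from limma), with an unadjusted p of 0.00742. It was -0.20 within libraries 1 and 2 and -0.25 within libraries 3 and 4.

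Cdh1 encodes E-cadherin and follows Cdh3 on the same strand of chromosome 8, from 106603351 to 106670246. It was by far the most abundant cadherin, at 320, 288, 290 and 273 FPKM in the control libraries and 250, 279, 272 and 269 in the cKO libraries. Control library 1 was the highest and cKO library 1 the lowest, and the other libraries lay close together with overlapping groups. The means were 292 ± 19.8 and 268 ± 12.4 FPKM (SD, n = 4 per group, two-sided exact permutation test, p = 0.0571). The log2 difference was -0.13 (standard error 0.08, 95% confidence interval -0.30 to 0.05, adjusted p = 0.462 from limma). It was -0.20 within libraries 1 and 2 and -0.05 within libraries 3 and 4.

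Between Cdh3 and Cdh1 lie 46053 bases, with 2 annotated genes. One of them, the processed pseudogene Gm10073, was 46.5 FPKM on average in control and 38.9 in cKO libraries, with overlapping groups. The other, the noncoding gene 1110028F18Rik, had at most 4 reads in a library. Tango6, the next protein-coding gene after Cdh1, was 1.40 FPKM in controls and 1.29 in cKO mice, with a log2 difference of -0.06. No exon of another annotated gene overlaps Cdh1 or Cdh3.

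Cdh2 encodes N-cadherin, the cadherin of neural and many mesenchymal cells, and lies on chromosome 18 from 16588877 to 16809246. It was the least abundant of the 9 genes, at 0.758, 0.852, 0.814 and 0.978 FPKM in control libraries 1 to 4 and 0.604, 0.541, 0.546 and 0.434 in cKO libraries 1 to 4. All 4 cKO values were below all 4 control values, on only 65 to 148 reads per library. The cKO mean was 37.5% below the control mean (two-sided exact permutation test, p = 0.0286). On log2(FPKM + 1) the difference was -0.27 (standard error 0.08, 95% confidence interval -0.46 to -0.09, adjusted p = 0.152 from limma), a scale that understates it at such low values. With a pseudocount of 0.1 it was -0.59, and limma-voom gave -0.68 (adjusted p = 0.053 from limma-voom). The study displays Cdh2, Cdh3, Snai2, Trp63 and Krt14 from these same libraries, so their direction here is not independent evidence.

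Cdh11 encodes OB-cadherin, a cadherin of fibroblasts and bone-forming cells, and lies on chromosome 8 from 102632095 to 102785642. It was measured at 1.25, 1.81, 1.15 and 2.08 FPKM in the control libraries and 1.80, 1.44, 0.948 and 1.32 in the cKO libraries. The spread within each group was wider than the gap between them, with means of 1.57 ± 0.443 and 1.38 ± 0.35 (SD, n = 4 per group, two-sided exact permutation test, p = 0.514). The log2 difference was -0.11 (95% confidence interval -0.45 to 0.23, adjusted p = 0.767 from limma). It was 0.06 within libraries 1 and 2 and -0.27 within libraries 3 and 4.

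Fibroblast markers differed between libraries in much the same order as Cdh11. The summed FPKM of 8 such markers (Col1a1, Col1a2, Col3a1, Dcn, Lum, Pdgfra, Fbln1 and Dpt) was 481, 828, 475 and 999 in control libraries 1 to 4 and 770, 458, 319 and 552 in cKO libraries 1 to 4. The library with the highest sum in each group, control 4 and cKO 1, also had the highest Cdh11 of its group, and the library with the lowest sum, replicate 3 in both groups, had the lowest. All 8 marker means were lower in cKO (median log2 difference -0.42), and 0 of 8 had an adjusted p under 0.05 in limma. At an unadjusted p under 0.05, 1 of 8, Fbln1, was lower, against 7.53% of all genes tested. Cdh2 was also highest in control library 4 and cKO library 1, the libraries with the highest sum in each group, but its lowest values were in control library 1 and cKO library 4. Between the groups, cKO library 1, at 770 FPKM of fibroblast markers, had 0.604 FPKM of Cdh2, and control libraries 1 and 3, at 481 and 475, had 0.758 and 0.814. Endothelial markers summed to 125 to 147 FPKM in control and 99.7 to 133 in cKO libraries. The mean FPKM was lower for each of the 8 markers but Esam (12.1 in both groups). Of the 8, 2, Pecam1 and Emcn, were lower at an unadjusted p under 0.05 in limma, against 7.53% of all genes tested. Adgre1, a macrophage gene, was 4.12 ± 0.631 and 2.87 ± 0.552 FPKM (SD, n = 4 per group), and its groups did not overlap. Of 6 adipocyte markers, 3 were tested, and Cidec, a lipid droplet gene, rose from 0.386 ± 0.0668 to 1.56 ± 0.549 FPKM (SD, n = 4 per group, adjusted p = 0.0377 from limma). No fibroblast or endothelial marker was at 0 in all libraries. The part of these cell types in the values of Cdh2, Cdh11 and Cdh13 was not tested. Skeletal muscle markers summed to at most 1.99 FPKM in any library.

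**Figure D2:**
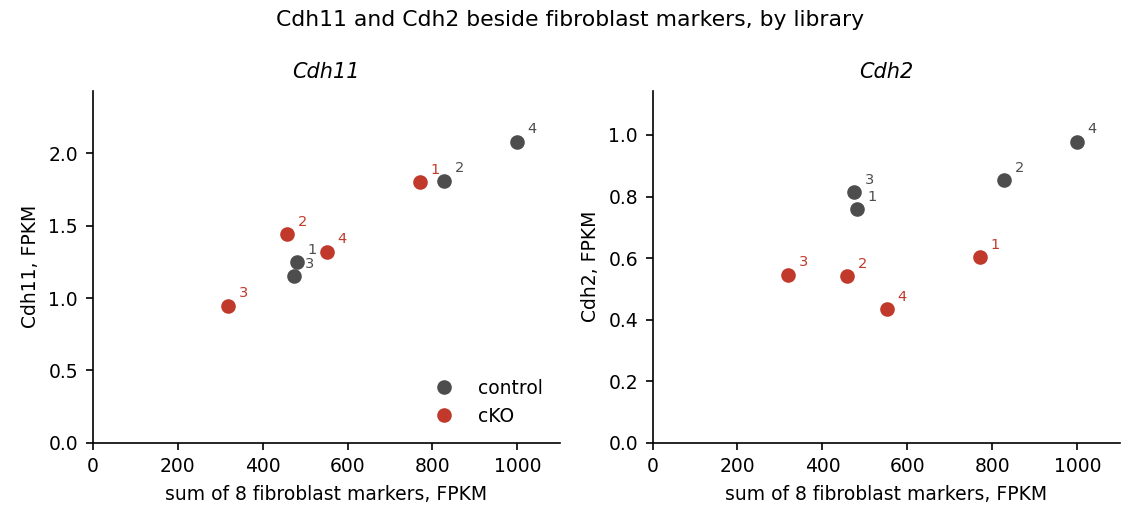
FPKM of Cdh11 (left) and Cdh2 (right) on the y axis against the summed FPKM of 8 fibroblast markers on the x axis, 1 point per library, control in grey and cKO in red with replicate numbers. Cdh11 is highest in control library 4, where the markers sum to 999 FPKM, and lowest in cKO library 3, where they sum to 319, whereas all 4 cKO values of Cdh2 lie below the control values.

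Cdh13 lies on chromosome 8 from 118283733 to 119324921. It varied little, at 5.16, 5.04, 5.23 and 5.31 FPKM in the control libraries and 4.65, 4.86, 4.67 and 5.08 in the cKO libraries. Only cKO library 4 reached into the control range. The means were 5.19 ± 0.117 and 4.82 ± 0.2 FPKM (SD, n = 4 per group, two-sided exact permutation test, p = 0.0571), and the log2 difference was -0.09 (95% confidence interval -0.22 to 0.04, adjusted p = 0.486 from limma).

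Among the catenins, the cadherin-bound β-catenin and plakoglobin were measured at like levels. Ctnnb1, the gene of β-catenin on chromosome 9 from 120929216 to 120960507, was 128, 128, 114 and 120 FPKM in the control libraries and 126, 119, 114 and 111 in the cKO libraries. The groups overlapped over most of their range, with means of 123 ± 6.78 and 117 ± 6.73 (SD, n = 4 per group, two-sided exact permutation test, p = 0.257). The log2 difference was -0.06 (95% confidence interval -0.22 to 0.10, adjusted p = 0.709 from limma). Exons of Ctnnb1 overlap Mir7090 and, on the opposite strand, Ulk4. These had no more than 3 and 23 reads per library, and Ctnnb1 no fewer than 9377.

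Jup encodes plakoglobin, which also sits in desmosomes, and lies on chromosome 11 from 100368958 to 100397763. It was 123, 112, 130 and 132 FPKM in control libraries 1 to 4 and 103, 106, 125 and 118 in cKO libraries 1 to 4. In both groups libraries 3 and 4 were above libraries 1 and 2, and the groups overlapped. The means were 124 ± 9.08 and 113 ± 10.04 FPKM (SD, n = 4 per group, two-sided exact permutation test, p = 0.171), with a log2 difference of -0.13 (95% confidence interval -0.33 to 0.06, adjusted p = 0.482 from limma). It was -0.16 within libraries 1 and 2 and -0.11 within libraries 3 and 4. The unadjusted p of Jup was 0.15 from limma, 0.0233 with the library sets as a block and 0.0429 with the replicate number as the block. The ratio of Ctnnb1 to Jup was 1.05 and 1.15 in control libraries 1 and 2 and 1.22 and 1.12 in cKO libraries 1 and 2, but 0.881 to 0.943 in libraries 3 and 4 of both groups. It thus moved with the library set and overlapped between control and cKO.

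Ctnna1, the gene of α-catenin on chromosome 18 from 35118859 to 35254779, was 114, 104, 103 and 107 FPKM in the control libraries and 104, 107, 107 and 103 in the cKO libraries. Ctnnd1, the gene of p120-catenin on chromosome 2 from 84600071 to 84650765, was 10.7, 10.7, 10.6 and 11.3 FPKM in the control libraries and 10.6, 10.9, 11.3 and 11.8 in the cKO libraries. Both overlapped between the groups. The log2 difference was -0.02 for Ctnna1 (95% confidence interval -0.16 to 0.12) and 0.04 for Ctnnd1 (95% confidence interval -0.08 to 0.17), and limma gave adjusted p-values of 0.903 and 0.754. Neither sign is firm, since that of Ctnna1 turned without control library 1 and that of Ctnnd1 in TPM and with library totals. An exon of Ctnna1 overlaps Lrrtm2 on the opposite strand, a gene with no more than 32 reads per library.

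**Figure D3:**
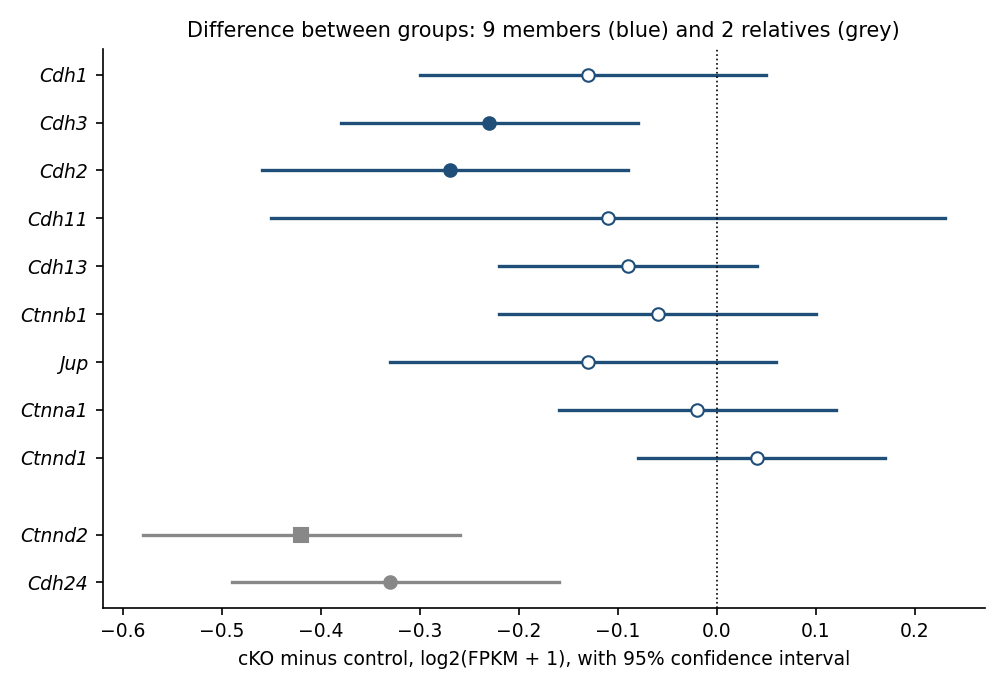
Differences of cKO minus control on log2(FPKM + 1) (x axis) with 95% confidence intervals, for the 9 genes (blue) and for Ctnnd2 and Cdh24 (grey). Filled symbols have an unadjusted p under 0.05 in limma and the square an adjusted p under 0.05, so that only Cdh3 and Cdh2 of the 9 are filled and only Ctnnd2 is square.

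Per unit of length, levels ran from Cdh1 through Ctnnb1, Jup and Ctnna1 to Cdh3, Ctnnd1, Cdh13, Cdh11 and Cdh2. Ctnnb1, Jup and Ctnna1 had overlapping ranges over the 8 libraries and so no fixed order. Cdh11 was above Cdh2 in each of the 8 libraries, although their ranges overlapped. The other neighbours in the order had separate ranges. The 5 cadherins summed to 347, 317, 319 and 302 FPKM in control libraries 1 to 4 and 274, 306, 297 and 294 in cKO libraries 1 to 4, with overlapping groups. Cdh1 made up 90.9% ± 0.759 of that sum in control and 91.5% ± 0.208 in cKO mice (SD, n = 4 per group), and Cdh3 made up 6.69% ± 0.528 and 6.21% ± 0.208. The ratio of Cdh1 to Cdh3 was 13.7 ± 1.28 and 14.8 ± 0.511 (SD, n = 4 per group). These shares and the ratio overlapped between the groups.

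As P-cadherin belongs to the myoepithelial layer, Cdh3 was set against 10 markers of that layer (Krt5, Krt14, Krt17, Acta2, Myh11, Cnn1, Tagln, Mylk, Oxtr and Actg2). The mean log2(FPKM + 1) of the markers was 5.95, 6.04, 6.36 and 6.35 in control libraries 1 to 4 and 6.00, 6.23, 6.32 and 6.41 in cKO libraries 1 to 4. The cKO mean was 0.07 higher (two-sided exact permutation test, p = 0.686), and in both groups libraries 3 and 4 were above libraries 1 and 2. Cdh3 minus this mean was -1.52, -1.54, -1.80 and -1.89 in the control libraries and -1.85, -1.86, -2.02 and -2.20 in the cKO libraries. Across all 8 libraries the groups overlapped, and the difference of -0.29 did not pass the threshold (two-sided exact permutation test, p = 0.0857). Within each set of libraries the cKO values lay below the control values, by 0.32 for libraries 1 and 2 and 0.26 for libraries 3 and 4.

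The markers differed among themselves. Of the 10, 0 had an adjusted p under 0.05 in limma and 2 had an unadjusted p under 0.05, against 0.892% and 16.4% of all genes tested. Krt14, a keratin of basal cells, was lower at 753 ± 93.7 in control and 577 ± 88.9 FPKM in cKO libraries. Oxtr, the oxytocin receptor, was higher at 2.62 ± 0.329 and 5.65 ± 1.71 FPKM (SD, n = 4 per group). Its log2 difference of 0.85 was the largest of the 10, so it raised the marker mean in cKO and widened the difference of Cdh3 from it. Krt14 (-0.39) and Krt17 (-0.35, unadjusted p = 0.0567 from limma) moved the mean the other way. The mean without Oxtr alone is not given here. With libraries 1 and 2 against 3 and 4 as a block, the adjusted p of Krt14 was 0.0187 from limma, and with the replicate number as the block it was 0.0607. Contractile genes such as Acta2 (825 ± 164 and 953 ± 160 FPKM) and Myh11 (79.4 ± 9.31 and 75.2 ± 13.5 FPKM) overlapped between the groups. Against the markers without the keratins the difference of Cdh3 was -0.42 (two-sided exact permutation test, p = 0.0286), and against the markers without the contractile genes it was -0.26 (two-sided exact permutation test, p = 0.0857). Oxtr remained in both of these sets. The ratio of Cdh3 to Krt14 alone was 0.0288 ± 0.00335 in control and 0.0321 ± 0.00595 in cKO mice (SD, n = 4 per group, two-sided exact permutation test, p = 0.4), so its mean was higher in cKO, with overlapping groups. Of 10 luminal markers, 0 had an adjusted p under 0.05 in limma. Elf5, a transcription factor of alveolar cells, was the only one with an unadjusted p under 0.05, against 16.4% of all genes tested. It was 21.3 ± 3.91 in control and 38.5 ± 8.02 FPKM in cKO libraries. Its adjusted p was 0.0591 from limma and 0.00651 from limma with the block of library sets. The ratio of Cdh1 to Epcam, an epithelial adhesion molecule, was 0.273 ± 0.0293 in control and 0.282 ± 0.0194 in cKO mice (SD, n = 4 per group) and overlapped.

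**Figure D4:**
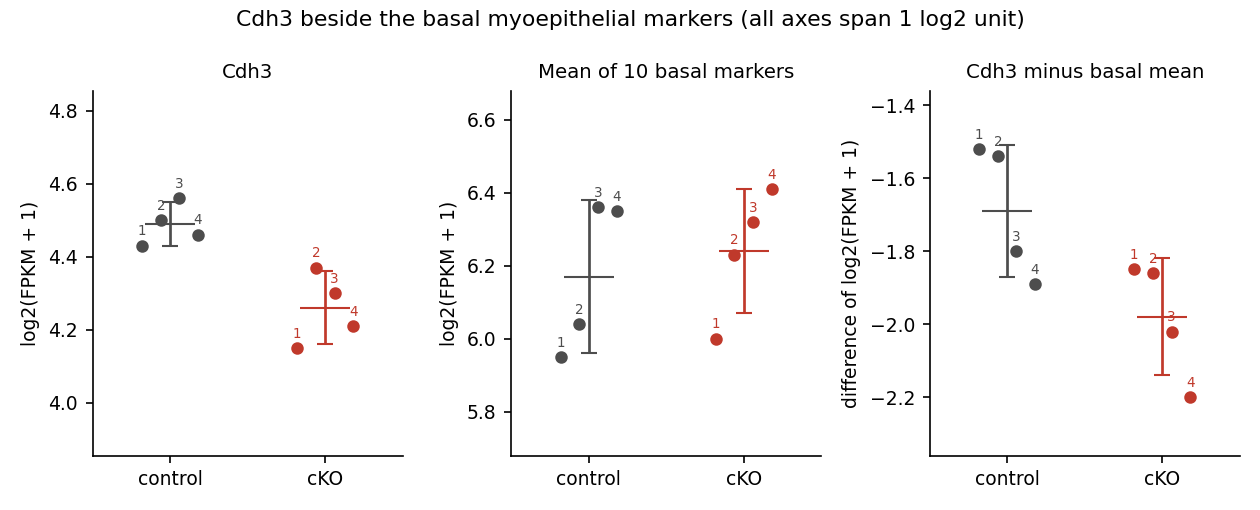
Cdh3, the mean of 10 basal markers and their difference (left to right, all on log2(FPKM + 1), y axes spanning 1 unit each and not starting at 0) in control (grey) and cKO (red) libraries, with replicate numbers, means and SD. Cdh3 separates the groups, the marker mean does not, and their difference runs from -1.89 to -1.52 in control and from -2.20 to -1.85 in cKO libraries.

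Transcription factors known to act on cadherin genes were read from a list of 16, of which 15 were tested. None had an adjusted p under 0.05 in limma, 3 were lower and 2 higher in cKO at an unadjusted p under 0.05, against 7.53% and 8.85% of all genes tested, and the median log2 difference was -0.16. The groups did not overlap for 5 of the 15, against 10.7% of all genes tested. These were the same 5 genes, so the count adds nothing separate to the unadjusted calls. The block of libraries 1 and 2 against 3 and 4 was itself read from these values. With it, limma gave adjusted p-values of 0.0283 for Tcf3, 0.0448 for Snai1 and 0.0456 for Trp63, which are under 0.05. With the replicate number as the block they were 0.0633, 0.0741 and 0.0812 in limma, and none passed. Tcf3, the gene of the E proteins E12 and E47, which repress Cdh1, was 19.9 ± 1.57 in control and 15.7 ± 0.991 FPKM in cKO mice (SD, n = 4 per group), a log2 difference of -0.33 (adjusted p = 0.0793 from limma). Snai1, the gene of the Cdh1 repressor Snail, was 4.27, 5.06, 5.96 and 5.19 FPKM in the control libraries and 6.33, 7.48, 6.95 and 8.20 in the cKO libraries. Its log2 difference of 0.43 (adjusted p = 0.0901 from limma) had the opposite sign to that of its relative Snai2, the gene of Slug, at -0.47 (adjusted p = 0.0901 from limma). Trp63, the gene of p63, differed by -0.42 (adjusted p = 0.181 from limma). Grhl1, of the grainyhead factors of epithelia, was 5.77 ± 0.435 and 7.29 ± 1.23 FPKM (SD, n = 4 per group), a log2 difference of 0.28 (adjusted p = 0.229 from limma).

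Among relatives of the catenins, Ctnnd2 fell in cKO and was the only gene of the junction lists with an adjusted p under 0.05. It encodes δ-catenin, a p120-catenin relative best known from neurons, and lies on chromosome 15 from 30172593 to 31029341. It was measured at 1.81, 1.99, 1.80 and 1.83 FPKM in control libraries 1 to 4 and 1.01, 1.20, 1.15 and 1.20 in cKO libraries 1 to 4, on 188 to 355 reads. The groups were well apart compared with the spread within them, and the log2 difference was -0.42 (standard error 0.07, adjusted p = 0.0377 from limma). The call was lost when any 1 of the 8 libraries was left out (adjusted p from 0.0614 to 0.116 from limma), with no filter on low values (adjusted p = 0.108 from limma), with the replicate number as a block (adjusted p = 0.0706 from limma) and in TPM without the milk genes (adjusted p = 0.0508 from limma), while the difference stayed between -0.71 and -0.39 in all 20 alternatives. Of the 12 listed relatives, 9 were tested, and a further 2 had an unadjusted p under 0.05, against 16.4% of all genes tested. Pkp2, a plakophilin of desmosomes, was 13.9 ± 0.59 in control and 15.7 ± 0.414 FPKM in cKO libraries, and Pkp4 was 30.8 ± 1.84 and 26.8 ± 1.95 FPKM (SD, n = 4 per group). The list's median log2 difference was -0.07.

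Of 34 other cadherin superfamily genes, only 14 passed the filter on low values, and 4 had no read in any library. None of the 14 had an adjusted p under 0.05 in limma, 3 were lower and 0 higher at an unadjusted p under 0.05, against 7.53% and 8.85% of all genes tested, and the median log2 difference was -0.15. Cdh24, a classical cadherin of the second type, was 4.04, 3.94, 3.93 and 4.06 FPKM in the control libraries and 2.70, 2.83, 2.98 and 3.44 in the cKO libraries. The control values lay within a narrow band above all cKO values, and the log2 difference was -0.33 (standard error 0.07, adjusted p = 0.0778 from limma, 0.0428 with the block of library sets and 0.0897 with the replicate number as the block). Pcdh18, a protocadherin, was 2.18 ± 0.496 and 1.46 ± 0.439 FPKM (SD, n = 4 per group) and overlapped. The third of them, Celsr1, a cadherin of planar cell polarity, was below 1 FPKM in every library. The endothelial Cdh5, which encodes VE-cadherin, was above Cdh3 in level, at 36.1 ± 2.15 FPKM in controls and 31.0 ± 5.26 in cKO mice (SD, n = 4 per group, log2 difference -0.22, adjusted p = 0.378 from limma).

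Of 24 adherens junction partners of the complex, all tested, 0 had an adjusted p under 0.05 in limma, against 0.892% of all genes tested. At an unadjusted p under 0.05, 1 was lower and 2 higher, against 7.53% and 8.85% of all genes tested, and the median log2 difference was -0.02. Afdn, the gene of afadin, which ties nectins to actin, was 20.3, 20.2, 15.5 and 17.6 FPKM in the control libraries and 21.5, 22.4, 23.0 and 21.4 in the cKO libraries. The groups did not overlap, but the difference was 0.11 within libraries 1 and 2 and 0.40 within libraries 3 and 4 (0.26 over all, adjusted p = 0.195 from limma). Nectin1, a cell adhesion molecule that binds afadin, was 22.8 ± 1.38 and 19.5 ± 2.17 FPKM (SD, n = 4 per group) and overlapped. Ssx2ip, which encodes an afadin-binding protein, was 6.60 ± 0.239 and 7.37 ± 0.193 FPKM (SD, n = 4 per group).

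Of 11 desmosome genes, 6 were tested, with a median log2 difference of 0.00. None had an adjusted or an unadjusted p under 0.05 in limma, against 0.892% and 16.4% of all genes tested. Dsp, the gene of desmoplakin, was 17.8 ± 1.46 and 16.1 ± 1.76 FPKM, and the desmosomal cadherin Dsg2 was 39.6 ± 4.83 and 40.4 ± 7.45 FPKM (SD, n = 4 per group). Of 10 genes of the complex that degrades β-catenin, 8 were tested, again with 0 at either threshold in limma (median 0.05). Axin1, a scaffold of that complex, was 27.9 ± 1.40 and 25.6 ± 0.903 FPKM (SD, n = 4 per group). Of 16 nuclear partners and targets of β-catenin, 11 were tested, and 0 had an adjusted p under 0.05 (median 0.01). One of them, the co-activator Bcl9, was higher at an unadjusted p under 0.05, against 8.85% of all genes tested. It was 4.19 ± 0.526 and 5.47 ± 1.08 FPKM (SD, n = 4 per group, log2 difference 0.31, adjusted p = 0.286 from limma). Of 14 genes of cadherin processing and turnover, 0 had an adjusted p under 0.05 in limma, and the median was 0.01. Rab11a, which recycles E-cadherin to the membrane, was higher at 27.7 ± 1.19 and 31.2 ± 1.52 FPKM, and Ptprm, a phosphatase that binds cadherins, was lower at 2.30 ± 0.205 and 1.82 ± 0.271 FPKM (SD, n = 4 per group), both at an unadjusted p under 0.05. At that threshold 8.85% of all genes tested were higher and 7.53% lower.

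**Figure D5:**
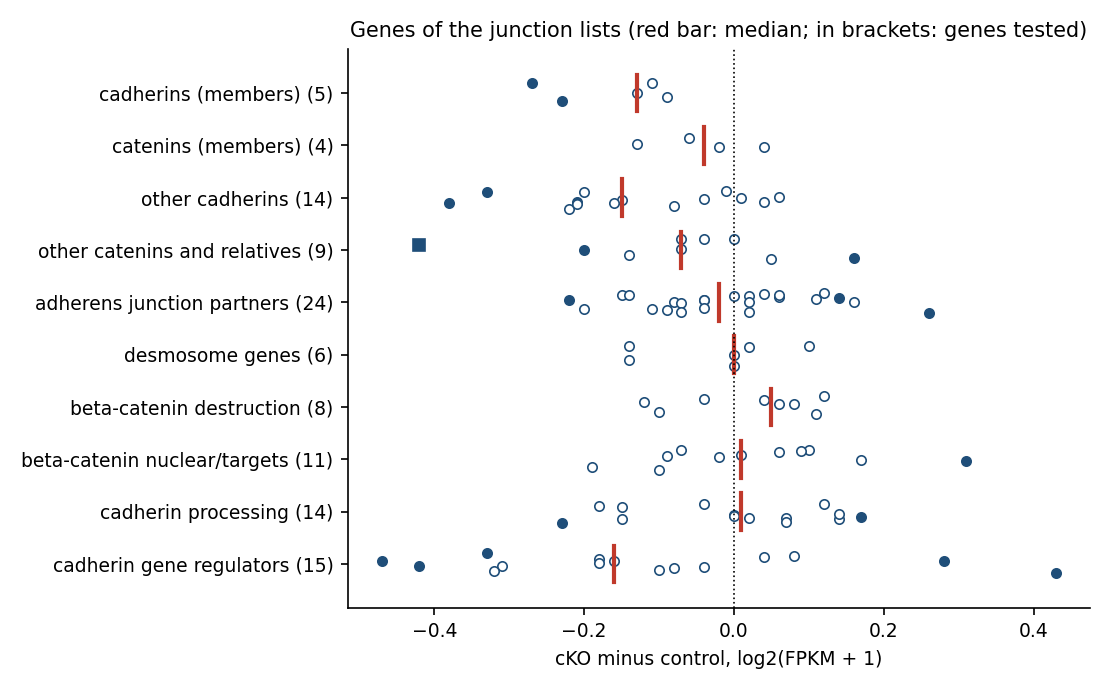
Difference of cKO minus control on log2(FPKM + 1) (x axis) for each tested gene of 10 lists (y axis, number of genes tested in brackets), with filled points for an unadjusted p under 0.05 in limma, a square for an adjusted p under 0.05 and a red bar at the list's median. Medians run from -0.16 for the regulators to 0.05 for the destruction complex, and the square is Ctnnd2.

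To place the cadherins among other genes, profiles over the 8 libraries were compared by the root mean square (RMS) difference of log2(FPKM + 1), each gene centred on its own mean among genes whose mean FPKM reached 5. The profiles most like that of Cdh3, which itself varied by an RMS of 0.133, were those of Rbmxl1 (RMS difference 0.0261), Tspan3 (0.0481), Fbxl19 (0.0511) and Wdr33 (0.0535). Those most like Cdh1 were Zcchc8 (RMS difference 0.0338), Man1b1 (0.0359), Rbm15b (0.0361) and Polrmt (0.0385), with an RMS of 0.0953 for Cdh1 itself. For Cdh11, with an RMS of 0.209, they were Antxr1 (RMS difference 0.0616), S1pr3 (0.069), Gpx8 (0.0726) and Ccl2 (0.0761). For Cdh13, with an RMS of 0.0565, they were Srsf6 (RMS difference 0.0209), Edc4 (0.0269), Khdrbs1 (0.0296) and Atg4b (0.0301).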

How the data were processed

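The authors prepared NEBNext Ultra libraries, checked the reads with FastQC 0.11.5, mapped them to GRCm38 with Hisat2 2.0.5, computed FPKM values and compared the groups with DESeq2 1.16.1. The submitters' processing notes also name StringTie 1.3.3b, featureCounts 1.5.0-p3 and the build mm9. Per the deposited table, FPKM are given for 55933 genes in each of 8 columns, which were matched to mice by name. Gene coordinates equal those of GENCODE vM21 for 99.68% of shared identifiers and for all 9 members, which places them on GRCm38. Whether reads were counted by strand is not given in the sources used here. For 100% of values above 0, FPKM times gene length and the implied library size was a whole number of reads (tolerance 0.01). The implied library sizes were in proportion to median-of-ratios size factors.

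FPKM were not put through a count test. The values were taken to log2(FPKM + 1) and fitted with limma 3.58.1 (R 4.3.3, empirical Bayes with trend, Benjamini-Hochberg adjustment over 15143 genes). Single values were compared by exact permutation tests in SciPy 1.17.1, and p-values measure the spread between mice. Python 3.11.15, pandas 2.3.3 and matplotlib 3.10.9 were used. The procedure was tested on simulated data. The members, 20 gene lists and markers were chosen with earlier results of these data known. From each list, genes with an adjusted p under 0.05 were named, and otherwise at most 4 with the lowest unadjusted p and a mean FPKM of at least 1. Grhl1 and Celsr1, which complete counts of 5 or fewer, were named after their values were seen. Cdh5, Epcam, Acta2, Myh11, Dsg2, the milk genes that the study displays and the neighbours of Cdh3 and Cdh1 were named besides. Between 16123108 and 19896988 reads lay on genes in a library, and counting error (Poisson) was 0.667% to 10.1% of the members' values. The alternatives are listed with their effect in the closing section. Promoter and protein sequences were not used here. The immune cell list as a whole is not reported here.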

Additional observations from a re-analysis of the deposited data

How the results depend on the processing

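In all 20 alternatives 0 of the 9 genes had an adjusted p under 0.05, with a lowest value of 0.053 (Cdh2, limma-voom on recovered reads). The number at an unadjusted p under 0.05 was 5 with library totals in place of size factors (Cdh1, Cdh13 and Jup beside Cdh2 and Cdh3) and 1 with a mean FPKM of at least 1, where Cdh2 was not tested. It was 3, adding Jup, in TPM (unadjusted p = 0.0112 from limma), in TPM without the milk genes (0.0231), with either block and in limma-voom with the replicate block. It was 2 whichever library was left out. The log2 difference of Cdh3 stayed between -0.29 and -0.19. That of Ctnna1 ranged from -0.04 to 0.01 with each library left out in turn, and the sign turned without control replicate 1. That of Ctnnd1 was -0.01 in TPM and -0.01 with library totals. Cdh3 relative to the basal markers was -0.42 without the keratins, the only one of its 15 alternatives to pass (exact permutation p = 0.0286), and -0.36 to -0.22 with each library left out. The cause of these changes was not tested. Filters, trend, blocks and limma-voom were not run for that value, which comes from no model. The replicate numbers did not pair the samples. Deviations of same-numbered libraries correlated at 0.137, 0.11, 0.116 and 0.0797, and not every library correlated best with its own number. With the replicate number as a block, adjusted calls over all genes went from 135 to 50 and members at an unadjusted p under 0.05 from 2 to 3, adding Jup (unadjusted p = 0.0429 from limma). With libraries 1 and 2 against 3 and 4 as the block, 442 genes were called and again 3 members at the unadjusted threshold. Among the listed genes, adjusted p was under 0.05 in 7 of 20 alternatives for Elf5, 5 for Tcf3, 2 each for Trp63, Krt14, Oxtr and Cdh24, and 1 each for Snai1, Snai2 and Adgre1. Leaving out 1 library left 0 to 78 adjusted calls over all genes. The counting error (Poisson) was 10.1% for Cdh2, 3.18% for Cdh13 and 2.66% for Ctnnd1, against coefficients of variation of 10.9%, 2.26% and 2.86% between control and 13.3%, 4.16% and 4.62% between cKO mice.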
